A study of Saccharomyces cerevisiae with 6 samples.

Results

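Reads per gene were compared between the library taken at about 4 and the library taken at 0 of a 4-thiouracil (4TU) chase in 6 cultures of the budding yeast Saccharomyces cerevisiae. The members were chosen by condition and time alone: the 6 labelled libraries with a chase time between 3 and 5 and the 6 labelled libraries at time 0, which makes 12 of the 42 libraries of the study. The study followed mRNA decay by SLAM-seq, in which RNA made in the presence of 4TU carries sites that are read as T>C conversions after alkylation, and it set out to find targets of nonsense-mediated mRNA decay (NMD) from changes in half-life. It used 3 cultures of BY4741 lacking UPF3, a gene for a core NMD factor, and 3 of BY4741 wild type, described by the submitters as biological triplicates. Each culture gave 7 libraries of mRNA 3′ ends: 1 without 4TU (DMSO) and 6 with 4TU along the chase. Both genotypes share the BY4741 background, a haploid laboratory strain that carries deletions of HIS3, LEU2, MET17 and URA3. A strain of that genotype depends on the medium for histidine, leucine, methionine and uracil. The labels state no medium, growth phase, length of labelling, way of starting the chase or number of clones of the deletion strain, and they state no unit for the chase times, which are therefore printed without one.

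A chase of this kind replaces the thiol-labelled base with an excess of the ordinary base, with the aim that T>C reads decay while newly made molecules come without label. In a culture at steady state the total level of each mRNA stays the same during the chase and only its labelled share falls. Yeast adjusts many transcripts within minutes when its medium or temperature changes. Well-known programmes are the sulfur amino acid genes under Met4, the purine genes under Bas1 and Pho2, the amino acid genes under Gcn4, the nitrogen catabolite genes under GATA factors and the genes of ribosome assembly.

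The 12 libraries held 11045419 to 16728378 reads over the 5560 genes of the files, of which 5521 passed a filter on low counts and were tested. The chase times of the libraries called 4 here were 4.57, 3.48 and 3.72 in upf3 deletion replicates 1, 2 and 3, and 3.97, 4 and 3.8 in wild-type replicates 1, 2 and 3. Reads with T>C made up 35.6% to 37.9% of all reads at 4 and 39.8% to 42% at 0, against 0.545% to 0.774% in the unlabelled libraries. UPF3 (YGR072W, chromosome VII, 634304 to 635467, build R64) had 4.45 to 7.18 normalised CPM at 4 and 2.88 to 4.15 at 0 in the 3 deletion cultures, and 22.5 to 30.4 at 4 and 22.1 to 31.4 at 0 in the 3 wild-type cultures. Normalised CPM are counts scaled to a common library total after a correction for library composition. Of the strain's deleted markers, LEU2 and MET17 had 0 to 18 reads in each of the 12 libraries. URA3 had 72 to 240 reads (6.08 to 14.8 CPM) at 4 and 79 to 181 reads (5.03 to 16.7 CPM) at 0. HIS3 had 112 to 202 CPM at 4 and 82.9 to 166 at 0, so its 3′ counting window was read in all 6 cultures. The a-cell receptor gene STE2 had 260 to 733 CPM at 4 and 298 to 783 at 0, against 5.96 to 35.6 and 6.98 to 36.8 for STE3, its counterpart in alpha cells. Replicate 1 of both genotypes stood apart in multi-mapping reads, with 0.916% at 4 and 0.592% at 0 in upf3 deletion replicate 1 and 0.636% at 4 and 0.564% at 0 in wild-type replicate 1, against 0.342% to 0.394% at 4 and 0.318% to 0.416% at 0 in the other 4 cultures. The labels name no batch. Upf3 deletion replicate 1 also had a low composition factor, 0.691 at 4 and 0.803 at 0, against 1.01 to 1.13 at 4 and 0.990 to 1.14 at 0 in the other 5 cultures. The SD of per-gene log2 changes over well-read genes was 0.494 in that culture and 0.277 to 0.389 in the other 5.

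Between 0 and 4, 441 of 5521 genes rose (7.99%) and 254 fell (4.6%). The largest rise was in the kinase gene RCK1, with a median of 403 normalised CPM at 4 and 34.5 at 0, and the largest fall in RGI1, a gene of respiratory growth, with 29.8 at 4 and 190 at 0. Among gene lists, 18 of 29 sulfur and methionine genes and 13 of 20 purine genes rose. So did 11 of 18 genes in the amino acid permease list and 7 of 15 arginine genes. In other lists 10 of 28 cell cycle genes and 5 of 11 zinc and copper genes fell. Of 138 cytosolic ribosomal protein genes 1 rose and 0 fell. Calls are from edgeR's quasi-likelihood test, with each culture as its own baseline and a Benjamini-Hochberg adjusted p under 0.05. At an unadjusted p under 0.05 there were 847 and 676. Of the 441, 398 were higher in 6 of 6 cultures, as were 11.2% of all genes, and of the 254, 227 were lower in 6 of 6, as were 9.26% of all genes. Most changes were small. The median log2 change was 0.49 among genes called higher and −0.40 among genes called lower, against 0.01 over all genes tested, and 47 rose and 17 fell at least 2-fold. All 6 libraries at 4 lay above all 6 at 0 in 57 of the genes called higher (1.03% of all genes did so), and below them in 24 of those called lower (0.435%). DESeq2 called 513 higher (9.29%) and 370 lower (6.7%), among them all 441 and all 254. Without upf3 deletion replicate 1, edgeR called 555 higher and 492 lower. Leaving out 1 of the other 5 cultures gave 296 to 359 higher and 130 to 176 lower. Replicates 2 and 3 of both genotypes, without either replicate 1, gave 595 higher and 440 lower.

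**Figure D1:**
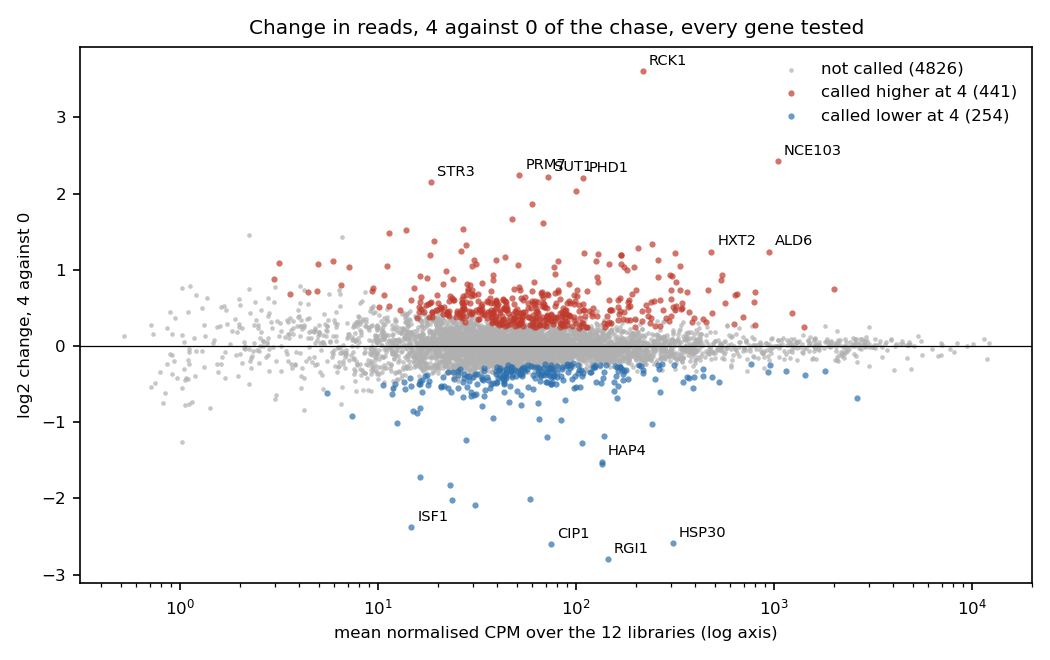
Each point is 1 of the 5521 genes tested, with its mean normalised CPM over the 12 libraries on the horizontal log axis and its log2 change, 4 against 0, on the vertical axis; red points were called higher at 4 (441), blue points lower (254), and grey points were not called. RCK1 lies highest at 3.60 and RGI1 lowest at −2.79.

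RCK1 (YGL158W, VII, 207033 to 208571), a protein kinase related to the stress kinase Rck2, changed most. It had 369, 393 and 302 normalised CPM at 4 in upf3 deletion replicates 1 to 3 and 482, 436 and 412 in wild-type replicates 1 to 3, against 13.9, 56.3 and 36.9 at 0 in the deletion replicates and 26.5, 32.0 and 41.2 in the wild-type replicates. Every library at 4 was thus above every library at 0, in both genotypes. The log2 change was 3.60 (SE 0.21, adjusted p = 3.99e-07 by edgeR), or 12.1-fold. NCE103 (YNL036W, XIV, 559814 to 560479), the carbonic anhydrase, had 1112, 1649 and 2925 CPM (lowest, median and highest of 6) at 4 and 206, 328 and 425 at 0. It too did not overlap, and rose by 2.42 on the log2 scale (SE 0.13, adjusted p = 1.47e-07 by edgeR).

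SUT1 (YGL162W, VII, 198138 to 199037), a zinc cluster factor of sterol uptake, had 93.3, 111 and 176 CPM at 4 and 14.9, 25 and 36 at 0, without overlap. Its log2 change was 2.21 (adjusted p = 7.53e-06 by edgeR), with 3.51 in upf3 deletion replicate 1 and 1.65 to 2.12 in the other 5 cultures. PHD1 (YKL043W, XI, 356748 to 357848), an activator of pseudohyphal growth, had 47.3, 201 and 276 CPM at 4 and 12.6, 41.3 and 60.9 at 0. Its libraries overlapped only through upf3 deletion replicate 1, which was lowest at both times, and it was higher in 6 of 6 cultures (log2 change 2.20, SE 0.08). ROX1 (YPR065W, XVI, 679693 to 680799), the repressor of hypoxic genes, had 211, 320 and 523 CPM at 4 and 57.1, 162 and 193 at 0, a log2 change of 1.34. PRM7 (YDL039C, IV, 381985 to 384081), a gene named for its response to pheromone, had 48.2, 83.6 and 135 CPM at 4 and 6.68, 18 and 27.8 at 0, a log2 change of 2.24 without overlap. A second gene of that name group, PRM10 (YJL108C, X, 217705 to 218856), rose by 1.49 on the log2 scale at a low level, with 4.31, 20.1 and 22.5 CPM at 4 and 1.66, 5.30 and 10.5 at 0. It overlaps the annotated gene YJL107C, so its reads may be shared with it. In the list of pheromone and a-cell genes, which holds neither, 2 of 17 tested were higher and 2 lower. That is 11.8% each, against 7.99% higher and 4.6% lower over all genes.

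STR3 (YGL184C, VII, 154615 to 156012), cystathionine beta-lyase of methionine synthesis, had 23.1, 31.9 and 35.4 CPM at 4 and 4.30, 6.33 and 9.47 at 0. Its log2 change was 2.15 (SE 0.13, adjusted p = 4.79e-07 by edgeR), without overlap. MMP1 (YLL061W, XII, 17956 to 19707), the S-methylmethionine permease, had 9.14, 46.6 and 58.3 CPM at 4 and 6.18, 13.9 and 20.7 at 0, a log2 change of 1.53. MEP1 (YGR121C, VII, 731449 to 732927), an ammonium permease, had 12, 20.3 and 26.3 CPM at 4 and 3.23, 6.96 and 12.7 at 0, also 1.53. The libraries of MMP1 and MEP1 overlapped, and both were higher in 6 of 6 cultures. NCA3 (YJL116C) rose by 1.38, and 4 genes known only by their locus names completed the 15 largest rises. They were YGR079W at 2.03, YGR035C at 1.86, YLR108C at 1.66 and YOR338W at 1.61. The libraries of these 5 genes did not overlap.

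RGI1 (YER067W, V, 292066 to 292551), named for its role in respiratory growth, fell most. It had 73.5, 21.4 and 24.5 CPM at 4 in upf3 deletion replicates 1 to 3 and 31.5, 28.6 and 31.0 in wild-type replicates 1 to 3, against 547, 134 and 150 at 0 in the deletion replicates and 305, 181 and 199 in the wild-type replicates. Every library at 4 was below every library at 0, and the log2 change was −2.79 (SE 0.10, adjusted p = 6.53e-09 by edgeR). HSP30 (YCR021C, III, 156109 to 157107), a stress protein of the plasma membrane, had 55.2, 95.1 and 117 CPM at 4 and 369, 515 and 670 at 0, a log2 change of −2.59 (SE 0.10, adjusted p = 1.15e-08 by edgeR). CIP1 (YPL014W, XVI, 527547 to 528692), an inhibitor of cyclin-dependent kinase, had 17.2, 20.8 and 23.4 CPM at 4 and 78.3, 120 and 186 at 0, a log2 change of −2.60. HAP4 (YKL109W, XI, 232227 to 233891), the activating subunit of the CCAAT-binding complex that drives respiratory genes, had 51.0, 73.1 and 81.5 CPM at 4 and 141, 209 and 250 at 0, a log2 change of −1.52. None of these overlapped between the times.

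The other 11 of the 15 largest falls ranged from −2.37 in ISF1 to −1.18 in STP4. ISF1 (YMR081C, XIII, 430079 to 431095) had 3.15, 4.59 and 7.57 CPM at 4 and 18.1, 23.1 and 32.2 at 0. VHS1 (YDR247W), a protein kinase gene, fell by 1.83 and COM2 (YER130C), a zinc finger factor gene, by 1.55, with −2.22 in wild-type replicate 2 and −1.58 to −1.26 in the other cultures. WSC4 (YHL028W), of the family of cell wall sensors, fell by 1.23. HO (YDL227C, IV, 46271 to 48031), the endonuclease of mating type switching, had 17.1, 45.2 and 60.1 CPM at 4 and 37.9, 105 and 140 at 0, a log2 change of −1.19 with a SE of 0.07. Upf3 deletion cultures had 17.1 to 40.4 CPM at 4 and 37.9 to 84.2 at 0, and wild-type cultures 50.0 to 60.1 at 4 and 126 to 140 at 0. The overlap came from upf3 deletion replicate 1, whose 0 library was the one at 37.9. HO was lower at 4 in 6 of 6 cultures. STP4 (YDL048C), a zinc finger factor gene, had 64.1, 70.4 and 118 CPM at 4 and 88.5, 170 and 406 at 0, also with overlap. The others were YLR297W at −2.09, TDA6 at −2.02, YER053C-A at −2.01, MPF1 at −1.72 and YKR075C at −1.27, all without overlap, as were ISF1, COM2 and WSC4.

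**Figure D2:**
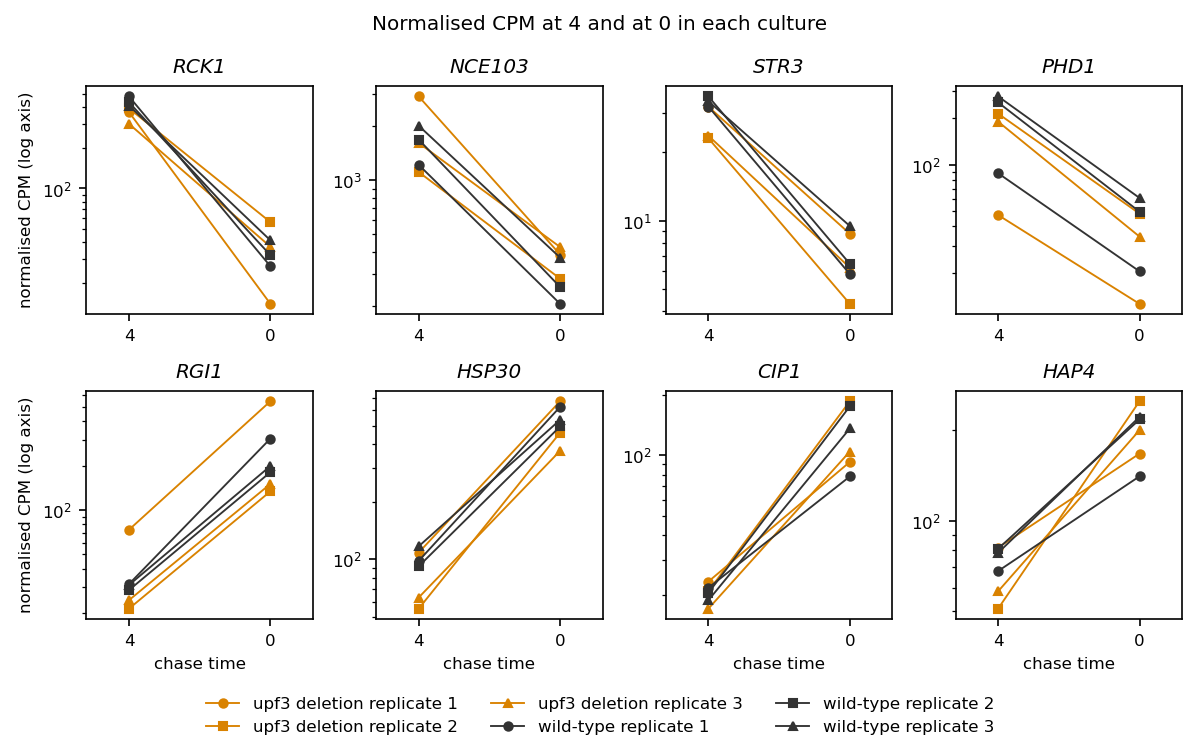
Normalised CPM (log axis) at 4 and at 0 of the chase for 4 genes that rose and 4 that fell, with 1 line per culture; orange lines are upf3 deletion cultures, dark lines wild-type cultures, and circles, squares and triangles mark replicates 1, 2 and 3. All 6 lines run the same way in each gene, and in PHD1 the lowest line is deletion replicate 1, at 47.3 at 4 and 12.6 at 0.

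The highest shares of genes called higher were in the purine, sulfur and methionine, amino acid permease and arginine lists. Of 29 sulfur and methionine genes tested, 18 were called higher at 4 (62.1%) and 0 lower, with a median log2 change of 0.40, against 7.99% and 0.01 over all genes. STR3 and MET28, MUP3 and MET2 had the lowest p values in this list. MET28 (YIR017C, IX, 383556 to 384119), a cofactor of Met4, had 27.0, 40.6 and 48.3 CPM at 4 and 13.1, 14.7 and 20.8 at 0, a log2 change of 1.32. MET2 (YNL277W, XIV, 117349 to 118809), homoserine acetyltransferase, had 42.7, 53.7 and 66.1 CPM at 4 and 21.3, 24.1 and 28.3 at 0, a log2 change of 1.12. MUP3 (YHL036W), a methionine permease, rose by 1.06. Every one of the 29 had a log2 change above 0, the lowest being 0.01, and the libraries of these 4 genes did not overlap.

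In the purine list 13 of 20 tested were called higher (65%, against 7.99% of all genes) and 0 lower, with a median of 0.48. Leaving out 1 culture at a time gave 12 to 14 higher. ADE2 (YOR128C, XV, 564476 to 566191), phosphoribosylaminoimidazole carboxylase, had 93.8, 214 and 254 CPM at 4 and 57.8, 100.7 and 112 at 0, a log2 change of 1.08. MTD1 (YKR080W, XI, 590395 to 591357) and SHM2 (YLR058C, XII, 257992 to 259401), enzymes of the folate-borne carbon units that purine synthesis uses, rose by 1.03 and 0.71. HPT1 (YDR399W), of purine salvage, rose by 0.62, all with adjusted p of 1.91e-04 or below by edgeR. The pyrimidine list had 2 higher and 1 lower of 18 (11.1% and 5.56%, against 7.99% and 4.6% of all genes) and a median of 0.06. Its largest rise was FCY2 (YER056C, V, 266512 to 268113), the permease for purine bases and cytosine, with 442, 750 and 871 CPM at 4 and 246, 397 and 411 at 0, without overlap (log2 change 0.94).

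Arginine, permease and amino acid genes rose in part, beside 7.99% higher and 4.6% lower over all genes. In the arginine list 7 of 15 were called higher (46.7%) and 0 lower, with a median of 0.27. ARG3 (YJL088W, X, 268799 to 269815), ornithine carbamoyltransferase, had 31.0, 37.7 and 41.0 CPM at 4 and 9.89, 16.2 and 22.4 at 0, a log2 change of 1.24 without overlap. ARG1 (YOL058W, XV, 219211 to 220473), argininosuccinate synthetase, rose by 1.07 (SE 0.07). CPA1 (YOR303W, XV, 882899 to 884134), the small subunit of the carbamoyl phosphate synthetase of arginine synthesis, whose upstream reading frame makes it a known NMD substrate, had 194, 354 and 542 CPM at 4 and 73.5, 208 and 360 at 0, a log2 change of 0.94 (SE 0.13, adjusted p = 3.36e-04 by edgeR).

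Of 18 genes in the amino acid permease list, 11 were higher (61.1%) and 1 lower (5.56%), with a median of 0.34. Over all genes 7.99% were higher and 4.6% lower, which also serves for the lists below. The 1 lower was TPO1, a polyamine exporter gene that is in the polyamine list too. AGP1 (YCL025C, III, 76018 to 77919), a broad-range permease, had 74.9, 106 and 117 CPM at 4 and 37.1, 55.7 and 67.5 at 0, a log2 change of 0.94. GAP1 (YKR039W, XI, 515063 to 516871), the general amino acid permease, had 24.3, 45.4 and 50.6 CPM at 4 and 17.1, 20 and 22.6 at 0, a log2 change of 1.08, and neither gene overlapped. AGP2 (YBR132C) rose by 0.71 and GNP1 (YDR508C), a glutamine permease, by 0.57. In amino acid synthesis 12 of 54 were higher (22.2%) and 0 lower, with a median of 0.11, and without single cultures 6 to 18 were higher. There the count was 18 without upf3 deletion replicate 1, 6 without upf3 deletion replicate 2, 7 without wild-type replicate 1, 7 without wild-type replicate 2 and 6 without wild-type replicate 3. SER3 (YER081W), of serine synthesis, rose by 0.90, LYS1 (YIR034C) by 0.73, LYS20 (YDL182W) by 0.71 and HIS4 (YCL030C) by 0.68. SER3 overlaps the transcript SRG1 upstream of it, so its reads may be shared. In the nitrogen catabolite list 7 of 19 were higher (36.8%) and 0 lower, with a median of 0.06, and 4 were called without wild-type replicate 3. After MEP1 the lowest p values there were in the ammonium permease gene MEP3 (YPR138C) at 0.56 and the GATA factor genes GLN3 (YER040W) at 0.66 and GZF3 (YJL110C) at 0.75. PCL5 (YHR071W, VIII, 237004 to 237693), the cyclin through which Pho85 marks Gcn4 for destruction, had 97.1, 156 and 217 CPM at 4 and 50.2, 62.1 and 88.9 at 0, a log2 change of 1.22 without overlap.

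**Figure D3:**
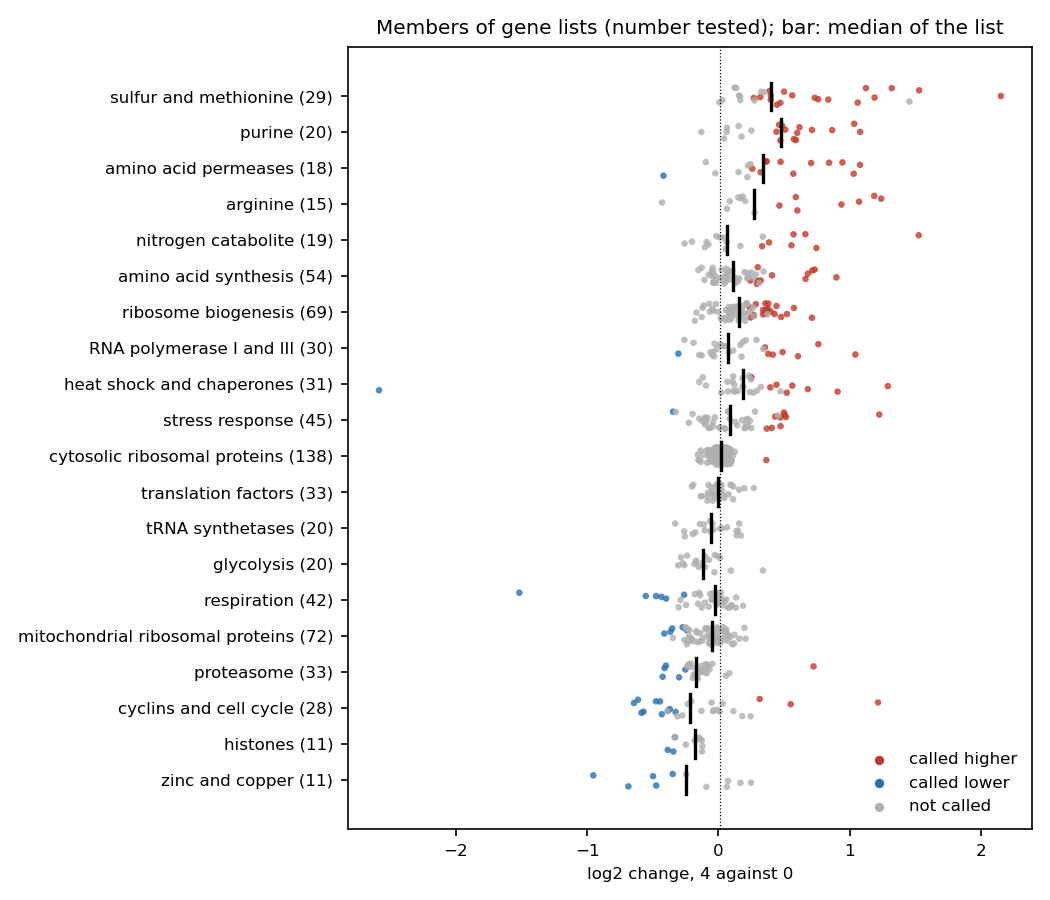
Log2 change, 4 against 0, of the members of 20 gene lists, with the number tested in brackets; red points were called higher at 4, blue lower and grey not called, thick bars are list medians and the dotted line is the median of all genes tested (0.01). Sulfur and purine genes lie mostly right of the line (medians 0.40 and 0.48), and zinc and copper genes mostly left of it (−0.25).

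Genes that build ribosomes and genes for the ribosome itself differed in their counts. Of 69 ribosome biogenesis genes 19 were higher (27.5%, against 7.99% of all genes) and 0 lower, with a median of 0.15. The count was 23 without upf3 deletion replicate 1, and it was 11, 11, 11, 10 and 10 without upf3 deletion replicates 2 and 3 and wild-type replicates 1, 2 and 3. NOG2 (YNR053C), a GTPase of large subunit assembly whose gene hosts SNR191, rose by 0.57. REI1 (YBR267W), of late large subunit maturation, rose by 0.71, RRP9 (YPR137W), of the U3 small nucleolar particle, by 0.52, and NOG1 (YPL093W) by 0.48. In the list of RNA polymerases I and III 7 of 30 were higher (23.3%) and 1 lower, with a median of 0.07. Among these were the polymerase I initiation factor genes RRN11 at 1.04, RRN7 (YJL025W) at 0.76 and RRN3 (YKL125W) at 0.49. RRN11 (YML043C, XIII, 190244 to 191767) had 31.5, 35.7 and 54.6 CPM at 4 and 14.4, 18.1 and 27.6 at 0, and 8.4% of its reads were multi-mapping. Of 138 cytosolic ribosomal protein genes 1 was called higher and 0 lower, with a median of 0.02. That gene, named after its values were seen, was RPL22B (YFL034C-A), with a log2 change of 0.36 (adjusted p = 0.0083 by edgeR). RPL22B differed in level between the genotypes. On a scaling over all 42 libraries it had 257 to 1085 CPM at 4 and 226 to 754 at 0 in the deletion cultures. In wild type it had 93.2 to 95.5 at 4 and 65.3 to 77.2 at 0. Of 33 translation factor genes and 20 tRNA synthetase genes none was called, with medians of −0.00 and −0.05.

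Carbon genes had calls in both directions. HXT2 (YMR011W, XIII, 288079 to 289704), a high-affinity glucose transporter, had 467, 641 and 909 CPM at 4 and 169, 314 and 348 at 0, a log2 change of 1.24. HXT6 (YDR343C, IV, 1159608 to 1161320), another high-affinity transporter with a near-identical copy in HXT7, had 31.1, 37.1 and 46.7 CPM at 4 and 47.0, 66.0 and 86.7 at 0, a log2 change of −0.77. Neither overlapped, HXT6 only narrowly. On a scaling over all 42 libraries HXT6 did overlap, with 47.1 CPM at 4 in wild-type replicate 1 and 46.4 at 0 in upf3 deletion replicate 1. Reads of HXT6 may be shared with its copy. RGT2 (YDL138W), a glucose sensor, rose by 0.55. In all 2 of 18 hexose genes were higher and 2 lower (11.1% each, against 7.99% and 4.6% of all genes). In the list named glucose-repressed 4 of 23 were higher (17.4%, against 7.99% of all genes) and 0 lower, with a median of 0.10. Whether each member of it, ALD6 included, is repressed by glucose was not tested here. ALD6 (YPL061W, XVI, 432588 to 434090), cytosolic aldehyde dehydrogenase, had 355, 1453 and 1890 CPM at 4 and 213, 558 and 779 at 0, a log2 change of 1.24. The activators ADR1 (YDR216W) and CAT8 (YMR280C) rose by 0.70 and 1.11, CAT8 at 7.04 to 9.48 CPM at 4 and 2.40 to 5.32 at 0. Of 42 respiration genes 0 were higher and 6 lower (14.3%, against 4.6% of all genes), with a median of −0.03. After HAP4 these included the tricarboxylic acid cycle genes IDH2 (YOR136W) at −0.48, IDH1 (YNL037C) at −0.43 and MDH1 (YKL085W) at −0.55. Without upf3 deletion replicate 1 the count was 10. Of 20 glycolysis genes none was called, with a median of −0.12. Of 72 mitochondrial ribosomal protein genes 5 were lower (6.94%) and 0 higher, and that count ran from 0 without wild-type replicate 3 to 15 without upf3 deletion replicate 1.

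Of 11 zinc and copper genes tested 5 were lower (45.5%) and 0 higher, against 4.6% and 7.99% of all genes. The list's median was −0.25, and the count stayed at 5 whichever culture was left out. ZRT1 (YGL255W, VII, 20978 to 22108), the high-affinity zinc transporter, had 1604, 1887 and 2942 CPM at 4 and 2494, 3016 and 4787 at 0, a log2 change of −0.69 (SE 0.07, adjusted p = 2.09e-05 by edgeR). ZAP1 (YJL056C, X, 330431 to 333073), the activator of zinc genes, had 32.5, 41.7 and 59.8 CPM at 4 and 64, 79.9 and 112 at 0, a log2 change of −0.95 without overlap. The zinc transporter genes ZRT2 (YLR130C) and ZRT3 (YKL175W) fell by 0.35 and 0.47 and the copper transporter gene CTR1 (YPR124W) by 0.50. ZRT3 was lower in 5 of 6 cultures, with 0.09 in upf3 deletion replicate 1. In the iron list 6 of 28 were higher (21.4%) and 1 lower, among them AFT2 (YPL202C), an activator of iron genes, at 0.47, and 3 were higher without wild-type replicate 2 or without wild-type replicate 3. In the phosphate list 3 of 25 were higher (12%, against 7.99% of all genes) and 0 lower, and 5 were higher without upf3 deletion replicate 1. PHO84 (YML123C), the phosphate transporter, rose by 0.73 and differed in level between the genotypes. It had 3.15 to 5.15 CPM at 4 and 1.33 to 2.58 at 0 in the deletion cultures, and 484 to 1170 at 4 and 331 to 683 at 0 in wild type. SPL2 (YHR136C) rose by 0.57 and PHM6 (YDR281C) by 0.80. Both were lower in the deletion too, with SPL2 at 1.36 to 9.04 CPM and PHM6 at 0.705 to 3.78 in the deletion cultures at 4, against 33.2 to 108 and 6.08 to 32.6 in wild type. The PHM6 call was lost without upf3 deletion replicate 3 or any one wild-type culture. Of 11 polyamine genes 3 fell (27.3%, against 4.6% of all genes), among them the exporter genes TPO2 (YGR138C) at −0.61 and TPO1 (YLL028W) at −0.42.

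Stress and protein quality genes were mixed, beside 7.99% higher and 4.6% lower over all genes. Of 31 heat shock and chaperone genes 8 were higher (25.8%) and 1, HSP30, lower, with a median of 0.19. SSA4 (YER103W, V, 364589 to 366517), the inducible Hsp70, had 50.5, 296 and 499 CPM at 4 and 25.3, 133 and 178 at 0, a log2 change of 1.29. HSP78 (YDR258C) of mitochondria rose by 0.91 and the Hsp90 co-chaperone STI1 (YOR027W) by 0.52. Without upf3 deletion replicate 1 the count higher was 13. It was 18 in the wild-type cultures alone (median 0.34) and 1 in the deletion cultures alone (median 0.07). Over all genes those fits called 362 and 75 higher, and such counts do not test a difference between genotypes. In the general stress list 9 of 45 were higher (20%) and 1 lower, with a median of 0.09. ALD4 (YOR374W, XV, 1039840 to 1041399), mitochondrial aldehyde dehydrogenase, had 97.4, 498 and 644 CPM at 4 and 53.7, 200 and 244 at 0, a log2 change of 1.22. GPP2 (YER062C), of glycerol synthesis, and GRE2 (YOL151W) each rose by 0.50. RPN4 (YDL020C, IV, 415113 to 416708), the activator of proteasome genes, had 116, 138 and 182 CPM at 4 and 59.6, 92.7 and 109 at 0, a log2 change of 0.72 without overlap. Of the other members of the proteasome list of 33, 5 were lower, among them the core particle gene PUP2 (YGR253C) at −0.43, and the list's median was −0.17. That count was 10 without upf3 deletion replicate 1 and 2 without wild-type replicate 2.

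Of 28 cell cycle genes tested 10 were lower (35.7%, against 4.6% of all genes) and 3 higher, with a median of −0.22. The count lower was 6 when a single wild-type culture was left out, whichever it was. RNR1 (YER070W, V, 298950 to 301616), the large subunit of ribonucleotide reductase, had 87.0, 117 and 164 CPM at 4 and 88.3, 182 and 258 at 0, a log2 change of −0.59. PCL9 (YDL179W), a cyclin of Pho85, fell by 0.57 and FAR1 (YJL157C), which arrests the cycle on pheromone, by 0.64. All 3 were lower in 6 of 6 cultures. Among 11 histone genes 3 were lower and 0 higher, and all 11 had changes below 0, from −0.39 to −0.12. HTA1 (YDR225W) had a log2 change of −0.39 and was lower in 6 of 6 cultures. HHT1 (YBR010W) and HHF2 (YNL030W) had −0.34 and −0.33, were lower in 5 of 6 cultures, and were not called without upf3 deletion replicate 2 or 3 or any one wild-type culture (adjusted p from 0.0713 to 0.100 by edgeR). The count of histone genes lower was 9 without upf3 deletion replicate 1 and 1 on leaving out another single culture. Of the mating list FUS1 (YCL027W), of cell fusion, rose by 0.81, and BAR1 (YIL015W), the protease that degrades alpha factor, fell by 0.50, with −1.01 in upf3 deletion replicate 1.

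The remaining lists gave few calls, beside 7.99% higher and 4.6% lower over all genes. There were 2 higher and 2 lower of 23 in cell wall integrity, 2 and 2 of 12 in daughter and cell separation genes, 1 and 1 of 38 in decapping and decay, 1 and 3 of 31 in ergosterol and lipid, 2 and 1 of 21 in oxidative and drug response and 2 and 0 of 17 in thiamine and vitamin B6. Such small counts moved when single cultures were left out. Without upf3 deletion replicate 1 there were 6 lower in ergosterol and lipid, 5 in mating type and pheromone, 4 in hexose transport, 4 in cell wall integrity and 3 in general stress. In thiamine and vitamin B6 none was higher without upf3 deletion replicate 3, wild-type replicate 1 or wild-type replicate 2, and 1 was without upf3 deletion replicate 2 or wild-type replicate 3. In daughter and cell separation none was higher without upf3 deletion replicate 2 or wild-type replicate 2. Leaving out 1 culture at a time gave 1 or 2 higher and 1 to 4 lower in cell wall integrity, and 0 to 2 lower in oxidative and drug response. None of the 5 NMD factor genes was called, and UPF3 itself had a log2 change of 0.21 (adjusted p = 0.509 by edgeR). Of 25 genes with known upstream reading frames, 5 were higher (20%) and 3 lower (12%), with a median of 0.04, and 1 was lower without upf3 deletion replicate 2 or 3 or wild-type replicate 2 or 3. Those higher included RCK1, CPA1 and UGA3 (YDL170W), a regulator of GABA genes, at 0.63, and those lower included HAP4.

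The library at the next earlier time served to check directions. Chase times there were 0.85 to 1.45, and the comparison shares its 0 libraries with that of 4, so the changes are not independent. At 1.1 edgeR called 34 of 5523 genes higher (0.616%) and 11 lower (0.199%). RCK1 already had a log2 change of 2.10 (adjusted p = 7.6e-05 by edgeR), SUT1 1.29, NCE103 1.09, YLR108C 0.90 and PHD1 0.89. Other rises at 4 were small at 1.1, such as PRM7 at 0.36, MET2 at 0.19 and MUP3 at 0.18, and none of these 3 was called there. Among the falls RGI1 had −0.89 at 1.1 and YLR297W −0.93, while HAP4 had −0.01, VHS1 0.09 and STP4 0.06 at 1.1. Of the 441 genes called higher at 4, 368 had a change above 0 at 1.1, against 49.7% of all genes, and 30 were called higher there. Of the 254 called lower at 4, 221 had a change below 0 at 1.1, against 50.3% of all genes, and 10 were called lower there. Their medians at 1.1 were 0.14 and −0.13, against −0.00 over all genes. One gene was called in opposite directions, YOR062C (XV, 442725 to 443531), with 0.41 at 1.1 and −0.40 at 4. It was named after its values were seen.

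Reads with T>C come from molecules that carry 4TU, apart from sequencing errors, and reads without T>C from unlabelled molecules and from labelled ones whose read shows no conversion. The split sums to the reads on which the calls were made, so it describes the calls and does not test them. Over all genes the median log2 change was −0.26 for reads with T>C and 0.14 for reads without. Among genes called higher the medians were 0.01 for reads with T>C and 0.72 for reads without, and among genes called lower −0.70 and −0.23. The share of reads with T>C in the median gene called higher was 27.5% at 4 and 39.2% at 0, in the median gene called lower 30.6% at 4 and 37.9% at 0, and over all genes 31.2% at 4 and 38.9% at 0. Reads without T>C were higher in 6 of 6 cultures in 419 of 441 genes called higher and 0 of 254 called lower (24.7% of all genes). Reads with T>C were lower in 6 of 6 cultures in 239 of 254 genes called lower and 24 of 441 called higher (31.9% of all genes).

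In the genes with the largest rises reads with T>C were higher too. In RCK1 reads with T>C had a median log2 change of 3.05 and reads without 3.71. In NCE103 the values were 1.58 and 2.90, in PRM7 1.54 and 2.44, in STR3 1.49 and 2.31 and in PHD1 1.35 and 2.51. RCK1 had 988 reads with T>C of 3514 at 4 in upf3 deletion replicate 1, against 68 of 151 at 0, and 1368 of 5459 at 4 in wild-type replicate 1, against 136 of 305 at 0. Of the 441 genes called higher, 56 had more T>C reads in 6 of 6 cultures, as did 58 of all 5521 genes. Among the falls RGI1 had −2.79 for reads with T>C and −2.57 for reads without, and HSP30 −2.57 and −2.59. Their T>C shares were 36.9% at 4 and 36.0% at 0 in RGI1 and 38.8% at 4 and 38.9% at 0 in HSP30. In HAP4 the T>C share was 28.5% at 4 and 44.2% at 0, with −2.02 with T>C and −1.14 without.

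**Figure D4:**
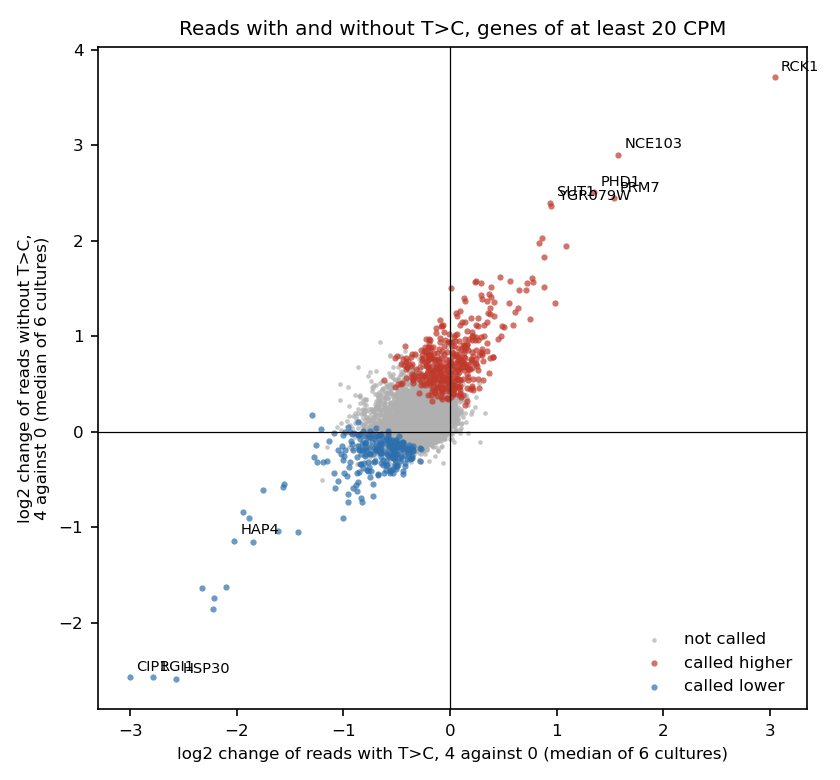
Each point is a gene with at least 20 mean CPM, with the log2 change of its reads with T>C, 4 against 0, on the horizontal axis and of its reads without T>C on the vertical axis, both as the median of 6 cultures; red genes were called higher in total reads, blue lower, and grey were not called. RCK1 stands at 3.05 and 3.71, HSP30 at −2.57 and −2.59.

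The change between 0 and 4 was also compared between genotypes, as the difference upf3 deletion minus wild type. In edgeR's test of the interaction 0 of 5521 genes were called, 266 had an unadjusted p under 0.05, and the lowest adjusted p was 0.388. DESeq2 called 6 (CPA1, MAL31, MET1, PHO89, SSA4 and YOR302W), and edgeR without upf3 deletion replicate 1 called 3 (BTN2, MET1 and SSA4). CPA1 had 351, 491 and 542 CPM at 4 and 256, 304 and 360 at 0 in upf3 deletion replicates 1 to 3, a mean log2 change of 0.58 ± 0.12 (SD, n = 3). In wild-type replicates 1 to 3 it had 194, 339 and 358 CPM at 4 and 73.5, 133 and 161 at 0, a mean log2 change of 1.3 ± 0.13 (SD, n = 3). The deletion and wild-type cultures thus overlapped at 4 and did not overlap at 0, where the deletion cultures were higher. The difference of the changes was −0.72 (SE 0.14). YOR302W, the upstream reading frame of CPA1, had nearly the same counts and is not a separate observation. SSA4 had mean changes of 0.82 ± 0.14 in the deletion and 1.74 ± 0.21 in wild type (SD, n = 3 each), a difference of −0.93 (SE 0.16). PHO89 (YBR296C), a phosphate transporter gene, had 0.01 ± 0.69 in the deletion and 2.46 ± 0.76 in wild type (SD, n = 3 each), at 1.47 to 35.2 CPM at 4 and 1.62 to 4.06 at 0. MAL31 (YBR298C), a maltose permease gene, had 0.16 ± 0.25 in the deletion and −0.94 ± 0.03 in wild type (SD, n = 3 each). The genotypes taken alone gave 75 higher and 23 lower in the 3 deletion cultures, and 362 higher and 190 lower in the 3 wild-type cultures. These counts do not test a difference, which the interaction test did.

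Later libraries gave the further course of these genes. On a scaling over all 42 libraries, the median gene called higher had log2 values against its own 0 library of 0.13 at 1.1, 0.47 at 4, 0.57 at 7.47 to 8.08, 0.26 at 17.4 to 18.1 and 0.17 at 57.4 to 58.1. The median gene called lower had −0.12, −0.37, −0.43, −0.39 and −0.17 at the same times. RCK1 had medians of 33.3 CPM at 0, 143 at 1.1, 398 at 4, 210, 148 and 9.12 at the 3 later times, against 2.93 in the unlabelled libraries. STR3 had 6.17 at 0 and 31.5 at 4, then 32.1, 1.82 and 8.45. NCE103 had 323 at 0 and 1625 at 4, then 2041, 1322 and 412. MEP1 had 6.72 at 0 and 20.2 at 4, then 14.0, 21.6 and 12.7. HSP30 had 517 at 0 and 96.3 at 4, then 9.45, 4.17 and 3.66, and STP4 had 165 and 69.5, then 10.8, 9.68 and 12.5. HO had 103 at 0 and 44.7 at 4, then 60.4, 64.2 and 172.

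The unlabelled libraries gave a second level to set beside that at 4. When the library at 4 was set against the unlabelled library of the same culture, edgeR called 547 genes higher (9.93%) and 230 lower (4.17%). Of the 441 genes, 417 were again higher, as were 50.6% of all genes, and 234 were called. Of the 254, 230 were again lower, as were 49.4% of all genes, and 80 were called. Both comparisons use the libraries at 4, so they are not independent. Of the 15 largest falls, YER053C-A, WSC4 and HO were called lower against the unlabelled library. The others were not called, with adjusted p from 0.0522 in STP4 to 0.705 in HAP4 by edgeR. All of the 15 largest rises were called higher. In replicates 2 and 3 of both genotypes CIP1 had 16.3 to 21.0 CPM at 4 (scaled over 42 libraries). There it had 19.2 to 32.0 without label and 97.1 to 180 at 0. RCK1 was at 2.50 to 5.03 CPM without label, below all its libraries at 0. In HSP30 the unlabelled libraries split by replicate number: replicate 1 had 1035 CPM in the deletion and 1014 in wild type, while replicates 2 and 3 had 7.20 and 6.08 in the deletion and 13.2 and 15.4 in wild type. RGI1 did the same, with 1302 and 1505 CPM in replicate 1 of the deletion and wild type and 41.1 to 49.5 in the other 4. At 0 both genes were again highest in replicate 1, by less. HSP30 had 662 and 629 CPM there in replicate 1 of the deletion and wild type and 344 to 536 in the other 4, and RGI1 540 and 306 against 130 to 199. With replicates 2 and 3 alone the log2 change, 4 against 0, was −2.54 in HSP30 and −2.64 in RGI1. ARG1 and GAP1, which rose between 0 and 4, had lower levels at 0 than without label in all 6 cultures. ARG1 had 144 to 171 CPM at 0 and 218 to 250 without label in deletion replicates 2 and 3, and GAP1 had 17.2 to 22.3 CPM at 0 and 37.7 to 74.1 without label in all 6. Against the unlabelled library AGP1, GAP1, AGP2 and GNP1 were not called at 4 (adjusted p from 0.129 to 0.535 by edgeR). SER3, LYS1, LYS20 and HIS4 were not called either (0.126 to 0.905). STR3, MET28, MUP3, MET2, ARG3 and CPA1 were called higher there.

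**Figure D5:**
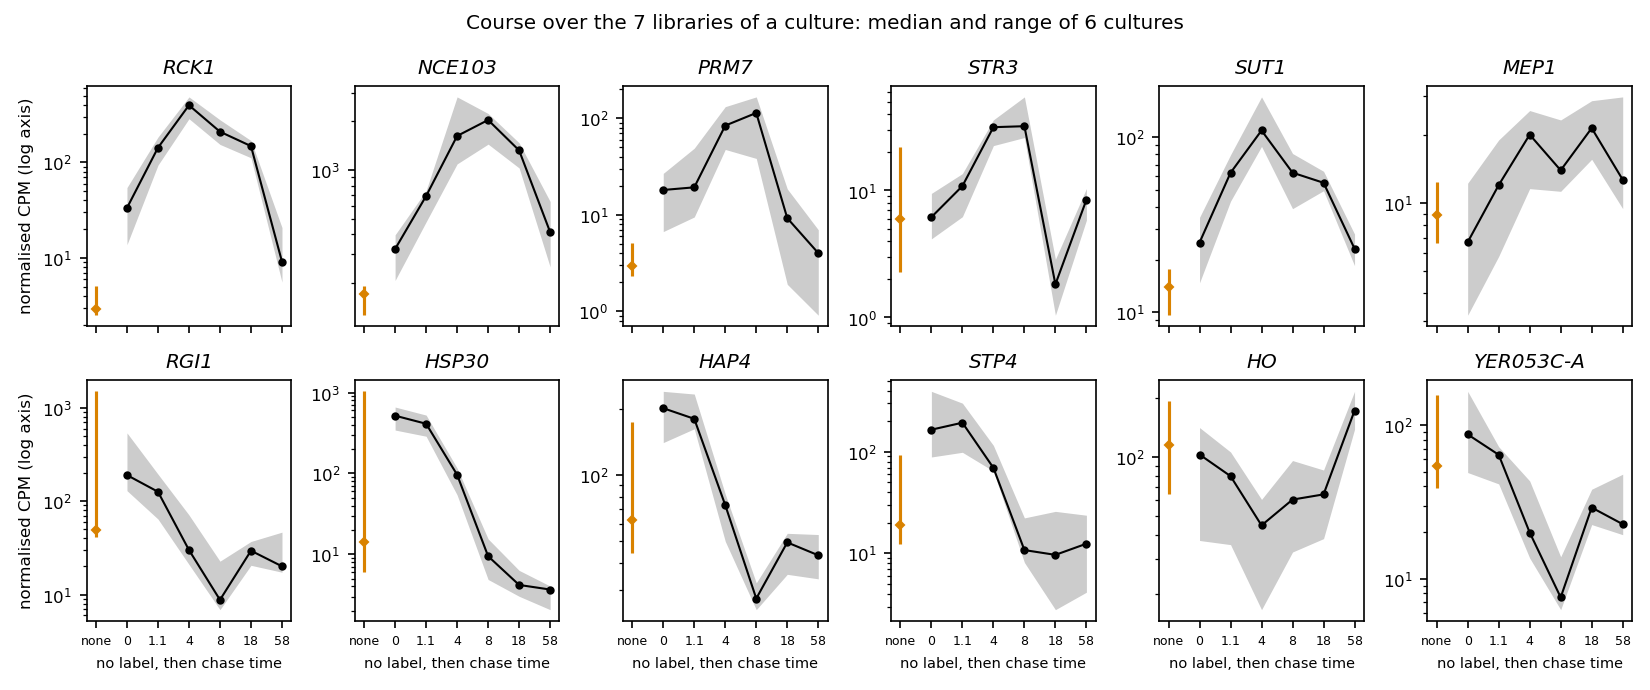
Normalised CPM (log axis, scaled over 42 libraries) of 6 genes that rose and 6 that fell, in the unlabelled library (orange, median and range) and along the chase (black line, median; grey band, range of 6 cultures). The RCK1 median is highest at 4 (398) and 9.12 at the last time, and the HSP30 median is 96.3 at 4 and 3.66 at the last time.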

How the data were processed

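Total RNA was alkylated and 3′ ends were sequenced with the QuantSeq FWD kit, per the labels' protocols. Per the file headers, the authors deposited counts per gene and library of reads, of reads with T>C and of multi-mapping reads. The submitters' processing notes name genome build R64. Per the library names in the deposited tables, trimmed reads were mapped, filtered and counted with SlamDunk and collapsed to 1 line per gene. Versions, settings and any use of strand were not stated. Per the file headers, the deposited tables also hold the conversion rate as a fraction and the authors' own scaled reads, treated here as a score since their divisor is not stated, and neither was used. The RefSeq table of R64 gave symbols and positions for 5558 of the 5560 genes. Totals were 11045419 to 16728378 reads in the 12 libraries compared, which limits the precision of low genes.

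Counts of the 12 libraries were tested with edgeR 4.0.16 in R 4.3.3 (filterByExpr, TMM, glmQLFit and glmQLFTest), with culture and time in the model, two-sided, and p values adjusted by Benjamini-Hochberg over all genes tested. Culture was a term because both libraries come from 1 culture. Their deviations from the mean of each time correlated at 0.834 to 0.937 over 4594 genes. Differences between genotypes or replicate numbers are part of those deviations, and libraries of different cultures were not compared in this way. Standard errors are those implied by the test. Normalised CPM are reads over TMM-scaled totals. The split by T>C used log2(CPM + 0.5) per culture, which understates changes of low genes. DESeq2 1.42.0, other filters and scalings, single cultures left out and other starting libraries were alternatives. The script was tested on simulated data.

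Named genes were the 15 largest rises and 15 largest falls among genes called, with at least 5 CPM on average and the same direction in 6 of 6 cultures, CPA1, UPF3, the 2 to 4 members of each list with the lowest p, and the 5 lowest p of the interaction. RPL22B, ZRT2, ZRT3, UGA3, PHM6, YOR062C, BTN2, MET1, VHT1, VHR1 and VHR2 were added after their values were seen. The comparison and the gene lists were chosen with earlier results of these data known, and some genes are in several lists. Some genes that the rule names are not reported here. Promoter motifs and sequences were not analysed here.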

Additional observations from a re-analysis of the deposited data

Results flagged for a closer look

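In 105 named genes and 5 measures of the libraries, the lowest or highest of the 6 cultures was checked for a gap to the next that exceeds Dixon's critical share of the whole range. Chance gives such a gap in about 1 in 20 groups, and 14 were found. Of these, 9 belong to upf3 deletion replicate 1, whose library at 4 also had the low composition factor of 0.691. In that culture the log2 change, 4 against 0, was 3.51 in SUT1 and 3.13 in YGR035C, against 1.65 to 2.12 and 1.42 to 1.84 in the others. It was 0.40 in GNP1, −0.67 in IDH2 and −1.01 in BAR1, against 0.55 to 0.64, −0.48 to −0.42 and −0.52 to −0.32. It was −0.052 in HTA1, 0.17 in HHT1 and 0.087 in ZRT3, against −0.57 to −0.40, −0.49 to −0.36 and −0.71 to −0.41.

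In upf3 deletion replicate 3 the change was −0.81 in CTR1 and 0.19 in SPL2, against −0.52 to −0.36 and 0.47 to 0.64 in the others. In wild-type replicate 1 it was 1.18 in LYS1 and 1.29 in LYS20, against 0.52 to 0.74 and 0.35 to 0.67. In wild-type replicate 2 COM2 had −2.22, against −1.58 to −1.26. The part of the library at 4 of upf3 deletion replicate 1 in these values was not tested.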

How the results depend on the processing

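Scaling by relative log expression, DESeq2, either filter on low counts, subtraction of multi-mapping reads and the robust option kept the direction and the call of all 105 named genes. Without the replicate block, that is with libraries not paired by culture, edgeR called 31 higher and 12 lower at 4 against 0 and 1 and 0 at 1.1. Without single cultures the counts were 296 to 555 higher and 130 to 492 lower at 4, 14 to 90 and 3 to 42 at 1.1, and 0 to 3 for the interaction. The 3 deletion cultures alone gave 75 higher and 23 lower, replicate 1 of both genotypes 86 and 25, replicates 2 and 3 alone 595 and 440 (96 and 43 at 1.1), and the library at 1.1 in place of 0 gave 137 and 46. DESeq2 called 62 higher and 30 lower at 1.1, and 6 in the interaction. The cause of these differences was not tested.

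Against the unlabelled library, log2 values turned sign in HSP30 (1.45), YKR075C (0.81), STP4 (1.47), HXT6 (0.86), TPO2 (1.28), ARG1 (−0.081), GAP1 (−0.43), SER3 (−0.080), MEP3 (−0.055) and RPL22B (−0.072). None of these was called there, with adjusted p from 0.0522 in STP4 to 0.905 in SER3 by edgeR. In HSP30, YKR075C, STP4, HXT6 and TPO2 the cultures disagreed. Replicate 1 of both genotypes was lower at 4 than without label, and the other 4 cultures were higher. UPF3, not called, had −0.0023 with no replicate block, −0.11 in wild type alone and −0.043 against 1.1, and MAL31 had 0.18 in the deletion alone. Changes of same-numbered cultures, taken from the mean of their genotype, correlated at 0.063, 0.091 and −0.094. These values concern changes and not levels, in which replicate 1 of both genotypes stood apart in HSP30 and RGI1 without label. Whether the numbers pair the genotypes is not settled by them. With the replicate number as a block, the interaction gave 0 calls, and 4 of 6 cultures correlated best with their own number. In the comparison of 4 against 0, not in the interaction, PHO89 had an adjusted p of 0.0676 by edgeR. It was called higher there without upf3 deletion replicate 1 (0.0340) or 2 (0.0131).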

Other observations

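Of genes in no list, 3 that act in biotin uptake or its control are named here because they rose between 0 and 4. They were chosen after their values were seen, and other biotin genes were not counted. VHT1 (YGR065C, VII, 618077 to 619858), the biotin transporter, had 50.6, 63.7 and 67.6 normalised CPM (lowest, median and highest of 6) at 4 and 24.5, 26.1 and 29.0 at 0, a log2 change of 1.17 (SE 0.08, adjusted p = 1.85e-06 by edgeR). VHR2 (YER064C, V, 282705 to 284222) had 113, 194 and 212 CPM at 4 and 32.5, 93.6 and 112 at 0, a log2 change of 1.21. VHR1 (YIL056W), the activator of VHT1, had 29.0, 65.3 and 94.7 CPM at 4 and 10.2, 46.3 and 69.9 at 0, a log2 change of 0.74. All 3 were higher in 6 of 6 cultures. At 1.1 against 0 their log2 changes were 0.20, 0.30 and 0.25, and none was called there.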
